A study of Mus musculus with 18 samples.

Results

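Memory and naive CD8 T cells that had both been cultured with IL-4 and IL-7 were compared on 4 of the 18 Affymetrix mouse arrays of the series, chosen by their titles: 2 arrays of memory cells and 2 of naive cells. All cells came from C57Bl/6 mice carrying the F5 transgenic T cell receptor and were sorted by flow cytometry from the spleen. The memory cells are called TIM cells in the labels. They were raised by peptide immunisation of F5 mice with NP68 and analysed on day 45. Both cell types spent 20 h with IL-7 at 10 ng/mL and IL-4 at 20 ng/mL, and 50 ng of RNA per sample was amplified for the array. The same difference was read on 4 arrays of cells given IL-7 alone (2 memory, 2 naive) and on 6 arrays of uncultured, ex vivo cells (4 memory, 2 naive), none of which is among the 4. The remaining 4 arrays hold memory cells cultured with IL-4 alone (2) or in medium (2), and all 18 arrays add to the estimate of the spread. As a model, TIM cells are memory cells of peptide immunisation, not of infection, and carry a single transgenic receptor.

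IL-7 is the cytokine that keeps resting T cells alive, and IL-4 is a cytokine of type 2 responses that signals mainly through STAT6. Their receptors share the common gamma chain, and CD8 T cells respond to both. Memory CD8 T cells differ from naive ones by genes that are held ready for rapid use, among them interferon gamma, the chemokine CCL5 and the chemokine receptor CXCR3, and by lower levels of genes typical of naive cells.

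The question was which memory minus naive differences remained, closed or opened when IL-4 was added to IL-7. All values are RMA values, a background-corrected and quantile-normalised log2 intensity per probe set, and differences are log2 differences, so that 1 unit is a doubling. A gene was called when limma's two-sided test gave a Benjamini-Hochberg adjusted p under 0.05 over 13770 genes. A difference remained when it was called in the same direction with IL-7 and with both cytokines. It closed or opened when the change of the difference, itself tested as a contrast of contrasts, was called and made the difference smaller or larger.

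Part of the differences remained, and few were shown to change. With both cytokines, 525 of 13770 genes (3.81%) were called, 222 (1.61%) higher in memory cells and 303 (2.2%) lower, and 3148 had an unadjusted p under 0.05. With IL-7 alone 372 genes (2.7%) were called and ex vivo 266 (1.93%). The call was shared, with the same direction, by 143 genes with and without IL-4, which is 27.2% of the list with IL-4 and 38.4% of the list with IL-7. Of these, 89 were higher and 54 lower in memory cells, and 81 were also called ex vivo in the same direction. The 372 genes called with IL-7 had a median size of 1.37 there and, signed the same way, 0.81 with both cytokines. The 525 genes called with both cytokines had a median size of 1.08 there and, signed the same way, 0.51 with IL-7. The change of the difference with IL-4 was called for 10 genes (0.0726%; 1386 had an unadjusted p under 0.05): 4 closed and 6 opened, and 1 of the 6 reversed its direction. Of the called genes, 42.3% were higher in memory cells, but this split depended on the scaling. It was 63.9% with every array centred on its median, 55.9% with quantile normalisation repeated over the genes tested and 52.9% with array weights.

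The arrays did not stand equally close to their groups. Naive array 2 with both cytokines lay closer to naive array 2 with IL-7 alone (SD of the difference over genes 0.38, r = 0.989) than to its own partner (SD 0.57, r = 0.975), while the 2 memory arrays differed with an SD of 0.36. Without naive array 2 the comparison called 1095 genes (58.4% higher), without naive array 1 it called 273, and without memory array 1 or 2 it called 371 or 78 (69.2% of the 78 higher). The memory array in medium numbered 2, which resembles ex vivo cells, acts only through the pooled spread, and without it 1029 genes were called, all 525 among them. Without ex vivo memory array 3 the count was 428, 409 of them shared with the 525. The change of the difference was called for 368 genes without naive array 2 and for 2 without memory array 2, and without naive array 2 the classes held 48 closed and 286 opened genes. Of 2 control transcripts read for RNA quality, Actb set the naive arrays with IL-7 alone apart, with a 3′ minus 5′ difference of 1.63 and 1.64 there and 1.86 to 2.25 on the other 6 arrays with IL-7. Gapdh did not, with 3.05 and 2.67 there and 2.82 to 3.36 on the other 6. The part of RNA quality in the change was not tested.

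The labels give no sex, and sex-linked genes separated the groups. Xist, the X-inactivation RNA, read between 4.35 and 5.27 on all 6 naive arrays and between 12.02 and 12.88 on all 8 cultured memory arrays, and ex vivo memory array 3 read 4.40 against 11.78 to 12.75 on the other 3. Its difference with both cytokines was 7.51 (adjusted p = 0.0373), and under the 20 alternatives it stayed between 7.07 and 7.95 with an adjusted p from 1.17e-07 to 0.292. The call was lost under 10 of them, among these the removal of any 1 of the 4 arrays compared, and the adjusted p was 5.12e-07 without ex vivo memory array 3. Eif2s3y, a Y-linked gene, read 10.18 to 11.28 on naive arrays and 9.48 and 6.78 on the 2 memory arrays with both cytokines. Its difference was -3.02 and was not called (adjusted p = 0.374). The level followed the replicate number in all 5 memory groups: arrays numbered 1 read 9.24 to 10.2 and arrays numbered 2 read 6.02 to 6.78. Kdm5d, also Y-linked, read 5.08 to 6.14 on the memory arrays numbered 1 and 3.35 to 3.77 on those numbered 2. The labels do not say whether same-numbered arrays share animals. X-linked genes made up 20 of the 525 called genes (3.81%) and 388 of the 13746 tested genes with a known chromosome (2.82%). The ex vivo memory array without the Xist signal had 132 of the other 142 remained genes on the same side of the naive mean, with a median of 1.16, and the other 3 arrays had 134, 140 and 135, with medians of 1.22, 1.18 and 1.13. Alas2, a haem enzyme of red cell precursors, read 4.83 and 5.38 on the naive arrays and 10.03 and 7.15 on the memory arrays, while Hba-a1, a globin gene, read 3.05 to 3.71 on the 8 arrays with IL-7, under the filter value of 4.06. The part of sex in the other differences was not tested.

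**Figure D1:**
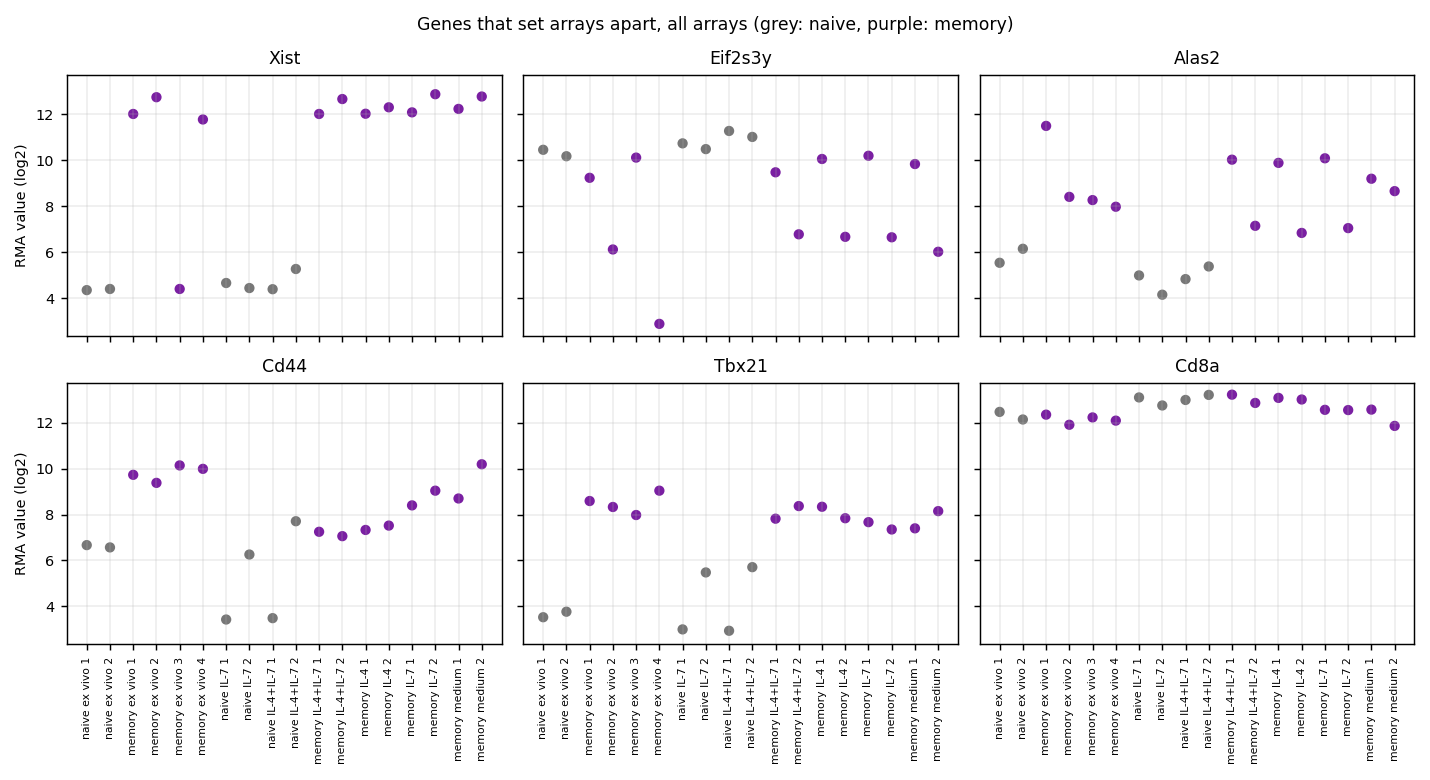
RMA value (log2) of 6 genes on each of the 18 arrays, naive in grey and memory in purple. Xist and Cd8a, the CD8 alpha chain, frame the set: Xist reads at most 5.27 on every naive array and 4.40 on 1 memory array, while Cd8a is high on all arrays. Cd44 and Tbx21 differ between the 2 cultured naive arrays of each condition.

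Cd8a was high on all 4 arrays. It read 12.99 and 13.21 on the naive arrays and 13.22 and 12.86 on the memory arrays, a difference of -0.06 (adjusted p = 0.907). The groups overlapped in Cd8a. Of the 12 tested genes of the receptor complex and CD8, 1 was called, Cd2, an adhesion molecule, at 1.04 (SE 0.25, adjusted p = 0.0339), and 9 of the 12 were positive, with a median of 0.27. The Cd2 call was lost under 4 of 20 alternatives, among them without naive array 1 and without memory array 2. The summed level of the 12 was 15.05 to 15.31 on naive and 15.46 to 15.48 on memory arrays, without overlap. The summed level of 3 CD4 T cell markers was 6.73 to 6.87 on naive and 7.51 to 7.52 on memory arrays, and of these Zbtb7b, a CD4-lineage factor, was called at 0.85 (adjusted p = 0.0253). Cd4 itself read 4.74 and 4.55 against 5.03 and 5.12. B cell markers (6 on the array) summed to 7.93 to 8.31 against 8.8 to 9.1, NK cell markers (3) to 5.67 to 5.77 against 6.01 to 6.08, and red cell precursor markers (2) to 5.29 to 5.64 against 7.28 to 10.04. Sums of myeloid (7.52 to 7.6 against 7.68 to 7.9), dendritic (6.86 to 6.89 against 7.05 to 7.31) and MHC class II markers (13.25 to 13.37 against 13.48 to 13.52) were apart too. limma called 0 markers of B, myeloid, MHC class II and dendritic cells and platelets (2, 1, 1, 3 and 0 had an unadjusted p under 0.05). With arrays centred on their median or quantile normalisation repeated, 1 B cell marker was called higher. The part of these cell types in the differences was not tested, and in bulk RNA fewer cells of a type and less RNA per cell cannot be told apart.

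After Xist, the largest called differences among genes higher in memory cells were those of Ifng, Cxcr3, Ccl5 and S100a6. Ifng, the interferon gamma gene, read 3.63 and 4.49 on the naive arrays and 10.36 and 10.04 on the memory arrays, a difference of 6.14 (SE 0.59, adjusted p = 4.46e-05). Its naive values lie near the filter value, so the size is uncertain. Cxcr3, a receptor that guides T cells to inflamed tissue, read 6.64 and 7.13 against 12.60 and 13.27 and differed by 6.05 (SE 0.33, adjusted p = 4.54e-07). The arrays of the 2 groups were apart in both genes, as they were in 52.3% of all genes tested. Ccl5 differed by 5.29 (SE 0.34), with 4.82 and 5.30 against 10.13 and 10.58. The difference of Ccl5 was 6.63 with IL-7 alone, a change of -1.34 that was not called (adjusted p = 0.403). S100a6, a calcium-binding protein, differed by 5.13 (SE 0.62), but its naive arrays read 3.09 and 5.38. Tbx21, the T-bet gene of effector and memory fate, differed by 3.77 (adjusted p = 0.0164), and its naive arrays read 2.94 and 5.71 against 7.82 and 8.37. Without naive array 1 or memory array 2 the Tbx21 difference was no longer called.

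Several receptors and regulators were in the same set. Ctla4, the inhibitory receptor, read 7.57 and 8.73 on the naive arrays and 11.44 and 11.28 on the memory arrays, a difference of 3.21 (SE 0.39, adjusted p = 0.000369), close to the 3.32 measured with IL-7. Cxcr5, the follicle-homing receptor, differed by 3.21 with both cytokines and by 4.10 with IL-7 alone. Hopx, an atypical homeodomain protein, read 6.68 and 7.0 against 9.96 and 10.31 and differed by 3.29 (SE 0.26). Il18rap and Il18r1, which together form the IL-18 receptor, differed by 2.67 and 2.30, and both were also called with IL-7 (2.42 and 1.45). H2-Q10, a class I gene of the Q region, differed by 4.38, with 4.07 and 4.25 against 8.29 and 8.78, though class I genes are near-identical copies whose probes can share signal. Art3, Mtmr7 and Prss12 also remained, at 3.24, 3.40 and 2.88, Prss12 with no call without memory array 2. Of the 15 largest differences in this direction, Ctla2a and Gm4951 did not pass in IL-7. Ctla2a, a cysteine protease inhibitor, read 4.83 and 6.04 on naive and 9.57 and 9.61 on memory arrays. Its difference of 4.15 was 1.44 with IL-7, but the change was not called (adjusted p = 0.342).

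Genes lower in memory cells were led by Sox4, a transcription factor of early T cells. Sox4 read 7.83 and 8.38 on the naive arrays and 4.51 and 3.87 on the memory arrays, a difference of -3.92 (SE 0.47, adjusted p = 0.000323). Among 7 further probe sets of Sox4, 2 were called in the same direction and 5 were not called. Ptprf, a receptor tyrosine phosphatase, read 8.04 and 8.73 against 5.26 and 4.36 and differed by -3.58 (SE 0.29). Cd81, a tetraspanin, read 9.79 and 9.73 against 6.33 on both memory arrays and differed by -3.42 (SE 0.38). These 3 also differed by between -3.43 and -3.78 with IL-7. Itm2a, a membrane protein of developing T cells, read 9.51 and 9.45 against 6.85 and 6.77, a difference of -2.67. Trat1, an adaptor of the T cell receptor complex, differed by -2.59 with both cytokines and by -2.61 with IL-7, although its own level was higher with IL-4 in both cell types (10.64 and 11.08 against 8.32 and 8.53 in naive cells). Xkrx, Mtss1, Prickle1, Tubb2b, Dleu2, Gprc5b and Baz2b also remained lower, at -2.10 to -2.95. Tubb2b was no longer called without naive array 1 or without either memory array, and Trat1 and Dleu2 were not without memory array 2. Ikzf2, the Helios gene, read 6.70 and 6.99 against 4.91 and 4.96 and differed by -1.91 (adjusted p = 0.0175), a call lost without naive array 1 or either memory array.

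**Figure D2:**
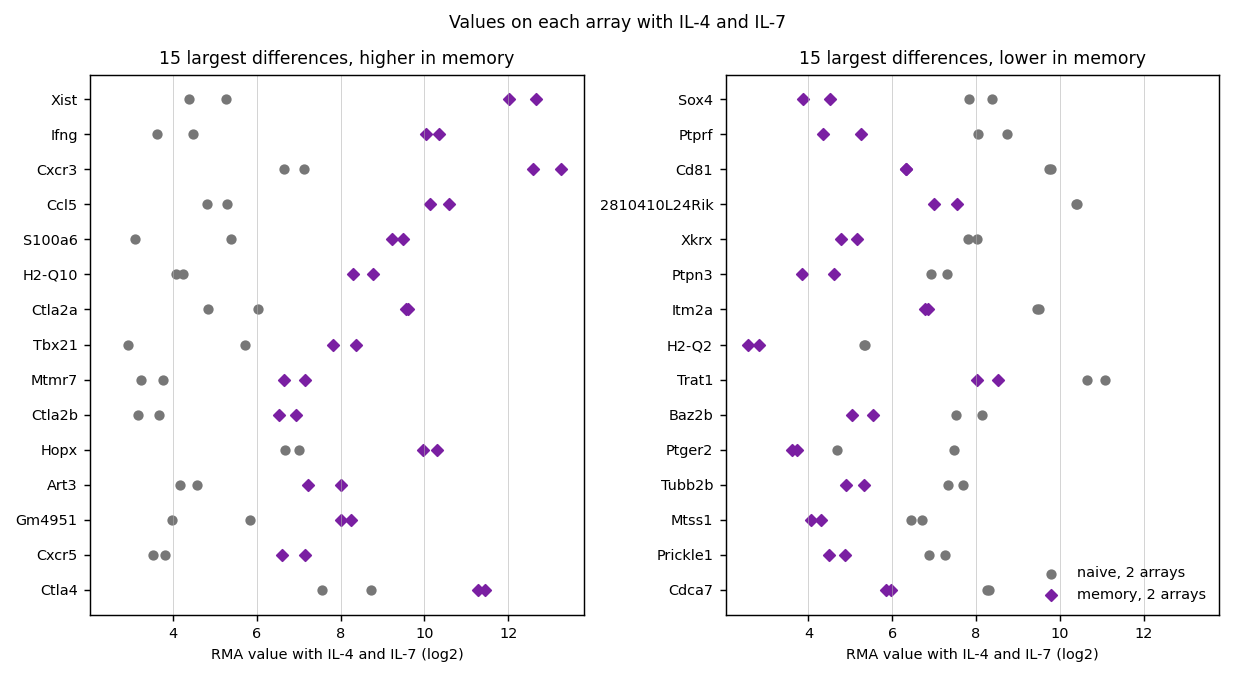
RMA value (log2) on the 2 naive arrays (grey) and 2 memory arrays (purple) with IL-4 and IL-7, for the 15 called genes with the largest difference in each direction whose arrays do not overlap. Cxcr3 and Cd81 show tight pairs, while S100a6, Tbx21 and Ptger2 show naive arrays that lie more than 2 units apart.

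Ex vivo differences were followed into culture, since these arrays are separate from the cultured ones. The 266 genes called ex vivo had a median size of 1.3. Signed by the ex vivo direction, their median was 0.90 with IL-7 and 0.94 with both cytokines. The same direction was kept by 242 and 260 of them, and 111 and 125 were called again, with 0 called in the opposite direction in either. The 141 genes higher in memory ex vivo kept medians of 1.21 and 1.24, and 83 and 77 of them were called. The 125 genes lower in memory ex vivo had a median of 0.49 with IL-7 and 0.82 with IL-4 as well, and 28 and 48 of them were called. In 169 of the 266, the difference, signed by the ex vivo direction, was higher with both cytokines than with IL-7. Across the 13770 genes, which are not independent replicates, the difference with both cytokines correlated at r = 0.66 with the ex vivo difference and at r = 0.5 with that in IL-7.

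**Figure D3:**
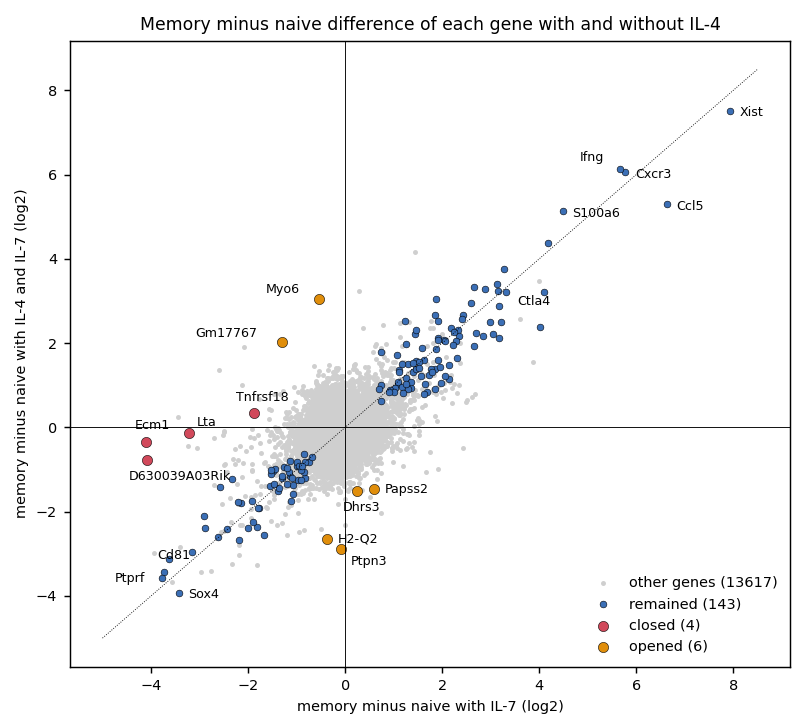
Memory minus naive difference (log2) of each of the 13770 genes with IL-7 (horizontal axis) and with IL-4 and IL-7 (vertical axis), with a dotted line where they are equal. The 143 remained genes (blue) follow the line from Sox4 to Xist, the 4 closed genes (red) lie near 0 on the vertical axis, and the 6 opened genes (orange) lie further from 0 on the vertical than on the horizontal axis, with Gm17767 crossing from -1.31 to 2.02.

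Of the 525 genes called with both cytokines, 376 were called there and not in IL-7, with no called change between the conditions. Of these, 131 were higher and 245 lower in memory cells, and 296 had the same direction with IL-7. Among all 13770 genes tested, 8198 had the same direction in the 2 comparisons. Their median size was 1.0 with both cytokines and, signed the same way, 0.3 with IL-7. For these genes the difference was not shown to change with IL-4.

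Ecm1, the gene of a secreted matrix protein, had the largest change that closed a difference. With IL-7 it read 10.11 and 10.31 on the naive arrays and 6.05 and 6.15 on the memory arrays, a difference of -4.11 (adjusted p = 4.87e-07). With IL-4 added it read 6.40 and 6.84 on the naive arrays and 6.39 and 6.15 on the memory arrays, a difference of -0.35 (SE 0.25, adjusted p = 0.403). The naive cells carried the change: IL-4 lowered Ecm1 there by a called 3.59 on the log2 scale, while memory cells read 0.17 higher without a call. Over all genes, the IL-4 response was called for 173 (1.26%) in naive and 249 (1.81%) in memory cells. The change of the difference was 3.76 (adjusted p = 0.00045). Ex vivo, Ecm1 read 6.61 and 6.56 on the naive arrays, and its difference was -0.14. The other closed genes, D630039A03Rik, Lta and Tnfrsf18, differed by -0.26, 0.58 and 0.15 ex vivo. Of the 4 closed and 6 opened genes, 0 were called ex vivo, which does not show that levels were alike. Among the opened genes, Myo6 (1.0), Gm17767 (0.04) and H2-Q2 (-0.64) had the same direction ex vivo as with both cytokines. Ptpn3 (0.25), Papss2 (0.38) and Dhrs3 (0.06) had the opposite direction. Closing and opening are used here only for the step from IL-7 to both cytokines.

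D630039A03Rik, an uncharacterised gene, closed by a different route. With IL-7 it read 9.09 and 8.88 in naive cells and 4.97 and 4.82 in memory cells, and with IL-4 added 11.01 and 11.15 against 10.37 and 10.23. IL-4 raised it in both cell types, by 2.10 in naive and 5.40 in memory cells. The difference went from -4.09 to -0.78 (adjusted p = 0.104), a change of 3.31 (adjusted p = 0.00205). Ecm1 and D630039A03Rik passed the test of the change under all 20 alternatives run.

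Lta, the lymphotoxin alpha gene, and Tnfrsf18, which encodes the costimulatory receptor GITR, closed between the 2 cell types. Lta read 9.13 and 9.14 on naive and 6.32 and 5.53 on memory arrays with IL-7, and 7.49 and 8.57 against 8.26 and 7.53 with both. Its groups overlapped with IL-4, and its change was 3.08 (adjusted p = 0.0462). Tnfrsf18 read 12.15 and 12.47 against 10.66 and 10.22 with IL-7, and 10.86 and 11.70 against 11.79 and 11.43 with both, a change of 2.20 (adjusted p = 0.0462). IL-4 raised memory cells by 1.97 in Lta and 1.17 in Tnfrsf18, both called, and naive cells read 1.11 and 1.03 lower without a call. These 2 calls passed under 8 and 7 of 20 alternatives.

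Myo6, an actin motor protein, opened upward. With IL-7 it read 8.15 and 7.20 in naive and 7.65 and 6.63 in memory cells, and with both cytokines 5.89 and 5.64 against 8.56 and 9.08. The difference went from -0.53 to 3.05 (SE 0.33, adjusted p = 0.000139), a change of 3.59 (adjusted p = 0.00583). IL-4 lowered naive cells by 1.91 and raised memory cells by 1.68, both called. A further Myo6 probe set gave a difference of 1.95 (adjusted p over probe sets = 0.00602), and a dimmer one gave 0.42. Their changes with IL-4 were 2.16 and 0.69, and neither was called by limma (adjusted p over probe sets = 0.233 and 0.564). Gm17767, an uncharacterised gene counted among the 6 opened genes, was also the 1 reversed gene: it read 4.87 and 5.37 against 4.17 and 3.45 with IL-7 and 5.47 and 5.57 against 7.36 and 7.72 with both. Its difference went from -1.31 to 2.02 (adjusted p = 0.00182). The change calls of Myo6 and Gm17767 each passed under 18 of 20 alternatives.

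The other 4 opened genes were lower in memory cells, and their change calls depended more on the settings: Ptpn3 passed under 16 of 20 alternatives, Papss2 under 14 of 20, H2-Q2 under 13 of 19 and Dhrs3 under 10 of 19. Ptpn3, a tyrosine phosphatase, read 3.44 and 3.87 in naive cells with IL-7 and 7.31 and 6.92 with both, while memory cells read 3.62 and 3.53, then 4.61 and 3.84. Its difference was -2.89 (SE 0.26, adjusted p = 2.28e-05), with a change of -2.81 (adjusted p = 0.00583). IL-4 raised it by 3.46 in naive cells and by 0.65, without a call, in memory cells. H2-Q2 read 2.73 and 3.13, then 5.33 and 5.34 in naive cells, and stayed between 2.53 and 2.82 in memory cells, under the filter value. Its change was -2.28 (adjusted p = 0.0154), and it shares sequence with other class I genes. Papss2, which makes the sulfate donor, read 4.50 and 4.95, then 6.70 and 6.23 in naive cells and 4.98 to 5.43 in memory cells, a change of -2.05. Its 3 other probe sets gave differences between -0.01 and 0.26, all at a lower level. Dhrs3, a retinal reductase, read 3.75 and 3.54, then 5.83 and 5.48 in naive cells and 3.82 to 4.39 in memory cells, a change of -1.76. In Ptpn3, H2-Q2 and Dhrs3 at least 1 of the values compared is at or under the filter value, so the sizes are uncertain.

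**Figure D4:**
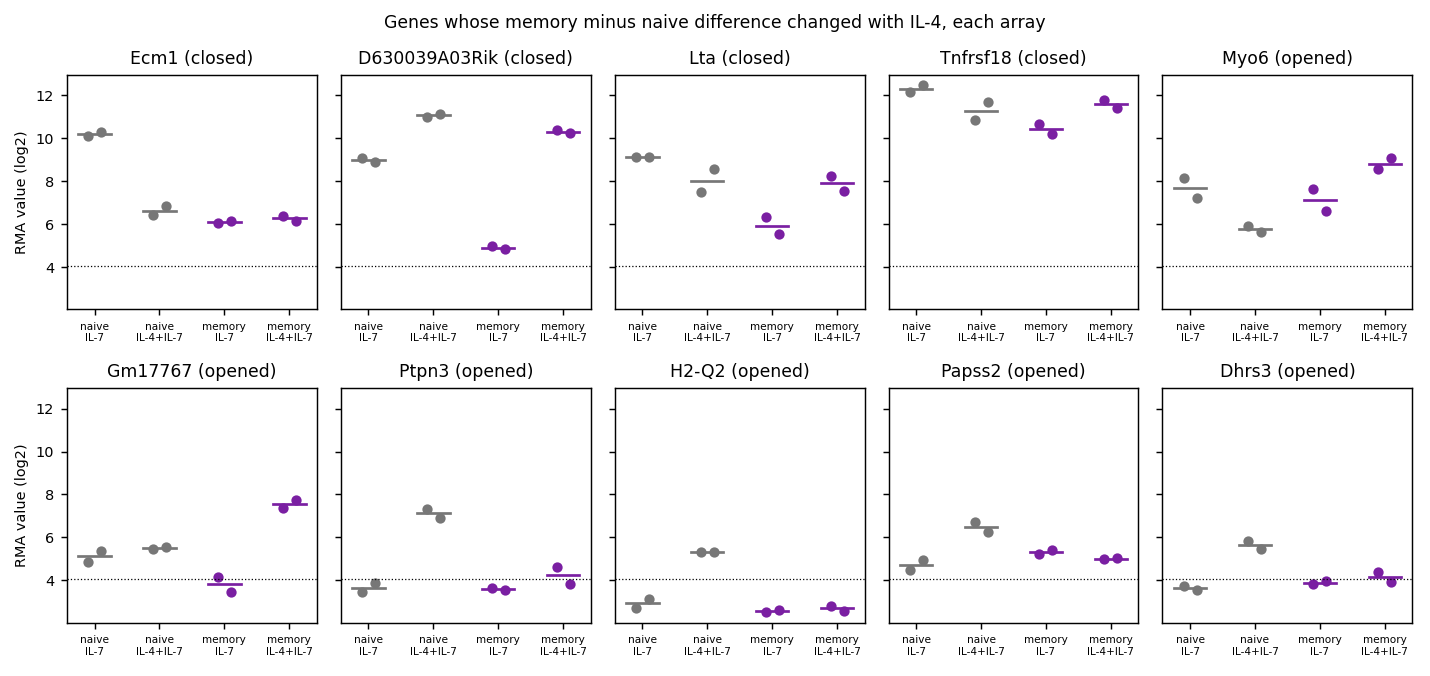
RMA value (log2) on each array of the 4 closed and 6 opened genes, naive in grey and memory in purple, with IL-7 and with IL-4 and IL-7. Bars are means of 2 arrays and the dotted line is the filter value of 4.06. Ecm1 falls in naive cells to near the memory level, while Ptpn3, H2-Q2, Papss2 and Dhrs3 read highest in naive cells with both cytokines.

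Promoter sequences were read for the closed and opened genes because IL-4 signals through STAT6, whose known binding motif is TTC and GAA with any 4 bases between them, while a gap of any 3 bases is the spacing of other STAT proteins. The 2 motifs were searched, on both strands alike since they are palindromes, from 250 bases before to 50 after the start in RefSeq promoters of GRCm38.p6. All 10 genes had a promoter. Lta held both motifs, Tnfrsf18 held that with the 3-base gap and Dhrs3 that with the 4-base gap, and the motifs did not overlap. Of the 11073 tested genes with a promoter, 6.57% held the 4-base gap and 8.23% the 3-base gap, against 9.73% and 11.5% of 113 remained genes and 8.27% and 6.86% of the 423 genes called with both cytokines. A match is a description of letters and not of a bound site. The stretches with the motifs in capitals, 5′ to 3′ along the gene's strand, are, for Lta chr17:35205352-35205511 (minus strand), for Tnfrsf18 chr4:156026203-156026321 (plus strand) and for Dhrs3 chr4:144892948-144892977 (plus strand):
Lta: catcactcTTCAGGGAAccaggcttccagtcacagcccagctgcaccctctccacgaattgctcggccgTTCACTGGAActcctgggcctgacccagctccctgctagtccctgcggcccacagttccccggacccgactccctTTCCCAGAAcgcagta
Tnfrsf18: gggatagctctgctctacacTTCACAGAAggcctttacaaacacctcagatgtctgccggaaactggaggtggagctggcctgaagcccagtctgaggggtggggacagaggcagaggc
Dhrs3: ccctttctttTTCTGGAGAAagttggaggg

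Of 28 tested memory identity genes, 9 were called higher with both cytokines and 0 lower (Tbx21, Prdm1, Cxcr3, Ccl5, Il18rap, Il18r1, Fasl, Ifng and Hopx), with a median difference of 0.91 against 0.03 for all genes, and 8 of the 9 were remained genes. The other 19 were not called, and 7 of the 28 were not positive. The called share of this list was 32.1%, and the count of each list stands beside 3.81% called over all genes tested. The count with IL-7 was 11. With both cytokines it was 7 without naive array 1, 6 without memory array 2 and 12 without the medium array numbered 2. Fasl, a death ligand, was called at 2.37 (adjusted p = 0.0357) but lost its call under 9 of 20 alternatives. Cd44, the standard memory marker, was not called: it read 3.49 and 7.71 on the naive arrays and 7.25 and 7.06 on the memory arrays, a difference of 1.56 (SE 1.02, adjusted p = 0.374). The naive arrays with IL-7 also lay apart, at 3.43 and 6.26. Il2rb, the IL-2 and IL-15 receptor beta chain, read 6.07 and 6.39 against 7.53 and 7.54 (difference 1.31, adjusted p = 0.169), and Eomes read 7.32 and 9.03 against 9.11 and 9.09.

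Of 23 tested naive identity genes, Sox4 was lower in memory cells and Nsg2 was higher, at 0.90 (adjusted p = 0.0303, lost without naive array 2 or either memory array), with a list median of -0.20 that was 0.11 without naive array 1. Ccr7 and Lef1, which mark naive and central memory cells, differed by -0.35 and -0.45 without a call. Ccr9, a gut-homing receptor, differed by -2.12 with IL-7 (called) and -1.18 with both (adjusted p = 0.0852), a change of 0.94 that was not called.

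Of 22 homing and adhesion genes, Cxcr3 and Cxcr5 were called higher and 0 lower, with a median of -0.14 and 9 members positive, and 3 were higher and 3 lower without naive array 2. Of 13 cytokines and chemokines, Ifng and Ccl5 were called higher and 0 lower, with a median of 0.00.

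Among 13 NK-type receptors, limma called 0 with both cytokines (median 0.49, 5 with an unadjusted p under 0.05) and 3 with IL-7, Klrk1, Klrd1 and Klrc1 (median 0.30, 3 with an unadjusted p under 0.05). With both cytokines, 2 were called with each array centred on its median, and 1 was called without memory array 1, without the medium array numbered 2 and with quantile normalisation repeated. No change of the difference was called in this list. Klrk1, which encodes NKG2D, read 4.12 and 3.91 in naive and 6.27 and 6.73 in memory cells with IL-7, and 4.11 and 4.05 against 4.60 and 4.76 with both. Its difference went from 2.49 to 0.60, and the change of -1.88 missed the threshold (adjusted p = 0.0596). That change was called under 6 of 20 alternatives: both replicate blocks, the variance model with trend and robust, and without naive array 2, the medium array numbered 2 or ex vivo memory array 3. Klrd1, the CD94 gene, differed by 1.76 with IL-7 and 1.42 with both (adjusted p = 0.0677), and it fell with IL-4 in both cell types, by 2.44 in naive and 2.78 in memory cells.

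Of 18 cytotoxic genes, Gzmk and Fasl were called higher, Gzmk at 2.00 (adjusted p = 0.0476), a call that 12 of 20 alternatives did not keep. With quantile normalisation repeated the list had 0 calls, and some fits without 1 array also called a member lower. The list had 1 higher gene without either naive array or memory array 1, 0 without memory array 2 and 5 without the medium array numbered 2. Gzma and Gzmb, granzymes A and B, were not called: Gzma read 7.61 and 8.88 on naive and 9.0 and 9.78 on memory arrays, and Gzmb read 3.72 and 5.15 against 6.73 and 6.26 (difference 2.06, adjusted p = 0.109). Of 9 tested inhibitory receptors and ectoenzymes, 4 were called higher: Ctla4, Nt5e (1.38), Entpd1 (1.93) and Lair1 (1.09). Other probe sets of Nt5e (0.26 and 0.23) and of Lair1 (0.12 and -0.20) were not called. Those of Entpd1 gave 2.12, which was called (adjusted p over probe sets = 0.0045), and 0.88, which was not. Nt5e and Entpd1 encode CD73 and CD39, enzymes of extracellular nucleotide breakdown. Only Ctla4 of these was called under all 20 alternatives, and the list had 2 calls without naive array 1 and 1 without memory array 2.

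Among 23 cytokine receptors, Il15ra, Il18r1 and Il18rap were higher and Tgfbr1, a TGF-beta receptor, was lower at -1.43 (adjusted p = 0.0369). The list had 2 higher and 0 lower genes without naive array 1 or memory array 2, 2 and 1 without memory array 1, 5 and 1 without naive array 2, and 6 and 1 without the medium array numbered 2. The call of Tgfbr1 was lost under 8 of 20 alternatives and that of Il15ra under 5. Il7r, the IL-7 receptor alpha chain, read 11.06 and 10.55 on naive and 11.99 and 12.12 on memory arrays, a difference of 1.25 that was not called (adjusted p = 0.0591), and 1.64 with IL-7, which was. Il4ra, the IL-4 receptor alpha chain, read 13.25 and 11.98 against 12.74 and 12.53, a difference of 0.02. Its IL-4 response was called in memory cells, at 3.05, and reached 2.02 in naive cells without a call.

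Some genes of cytokine response and growth were lower in memory cells with IL-7 and were not called with both cytokines. Of 18 IL-4 and STAT6 responsive genes, 3 were lower with IL-7 (Socs2, Cish and Myc) and limma called 0 with both (2 had an unadjusted p under 0.05). Cish, a feedback inhibitor of cytokine receptors, read 9.14 and 10.00 in naive and 7.49 and 6.62 in memory cells with IL-7, and 9.63 and 10.80 against 9.93 and 10.14 with both. Its difference went from -2.52 to -0.18, and the change was not called (adjusted p = 0.403). Socs2 went from -2.13 to 1.0 (change adjusted p = 0.146). Of 20 ribosome biogenesis genes, 5 were lower with IL-7 (median -0.84) and 0 with both (median -0.46, 9 with an unadjusted p under 0.05), where 1 member was positive. Without the medium array numbered 2, 3 were called lower, and without naive array 1, 1 was. The median stayed between -0.60 and -0.24 without 1 of the 4 arrays and under both scalings. Of 16 cholesterol synthesis genes, Fdps, Mvd and Msmo1 were lower with IL-7 and Sqle, squalene epoxidase, was lower with both at -0.92, a call that 6 of 20 alternatives did not keep, median centring and repeated quantile normalisation among them. No change of the difference was called in these 3 lists.

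Interferon-stimulated genes gave 1 call of 28 with both cytokines, Zbp1, a nucleic acid sensor, at 1.32 (adjusted p = 0.047), which 12 of 20 alternatives did not keep. A further Zbp1 probe set, with means of 8.66 in naive and 9.14 in memory cells, gave 0.47. It was not called by limma (adjusted p over probe sets = 0.399). The list had 0 calls without naive array 1 or either memory array, and 3 without naive array 2 or with each array centred on its median. The list's median was 0.39 with 26 members positive, 0.06 with IL-7 and -0.38 ex vivo, where 3 members were called lower. It stayed positive, between 0.20 and 0.70, without 1 of the 4 arrays and under both scalings. Of the transcription factors (39 tested), Tbx21, Prdm1, Ikzf3 and Hopx were higher and Ikzf2 lower, and 1, 2 and 1 were called, all higher, without naive array 1, memory array 1 and memory array 2. Of 22 calcium-binding and cytoskeletal genes, S100a6, Lgals1 and Crip1 were higher, with 1 call left without naive array 1 or memory array 2 and 6 calls without naive array 2. Ier3, an early stress response gene, was the 1 of 21 immediate early genes called, at 2.35, and Bik, a BH3-only death gene, the 1 of 13 BCL2 family genes, at 2.49. With 1 call each, the interferon-stimulated, immediate early and BCL2 family lists had 3.57%, 4.76% and 7.69% called, against 3.81% of all genes tested. The transcription factor and calcium-binding lists had 12.8% and 13.6% called. Proliferation (26), glycolysis (14) and costimulation (14) genes gave 0 calls by limma with both cytokines, and 2, 0 and 1 of them had an unadjusted p under 0.05. Without naive array 1, 3 costimulation genes were called lower.

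**Figure D5:**
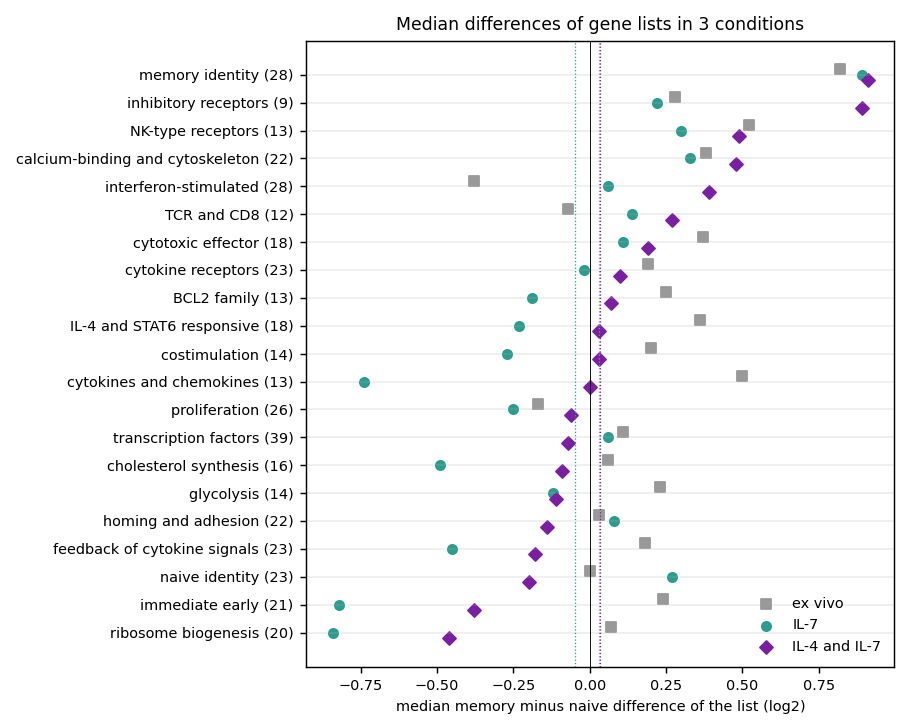
Median memory minus naive difference (log2) of each gene list, with the number of members tested in brackets, ex vivo (squares), with IL-7 (circles) and with IL-4 and IL-7 (diamonds). Dotted lines are the medians of all 13770 genes. Memory identity genes sit at 0.82 to 0.91 in all 3 conditions, and ribosome biogenesis genes lie at -0.84 with IL-7 and -0.46 with both.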

How the data were processed

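RNA of 18 samples in 8 groups was read on Affymetrix mouse arrays. The authors deposited log2 RMA values, in which probe signals are corrected for background, quantile-normalised over arrays and summarised per probe set. The submitters' processing notes name RMA and limma, without versions. No step after scanning is otherwise given in the sources used here. Titles gave each sample's group. Of 45101 probe sets, 34958 had 1 gene symbol, 932 had several and 9211 had none in the platform annotation, and the last 2 kinds were left out. The probe set with the highest mean over 18 arrays stood for each of 18194 genes, and 13770 were tested, those with 2 or more arrays above 4.06, the 40th percentile of the table. That value is no measured background.

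One linear model over all arrays was fitted with limma 3.58.1 in R 4.3.3 (10 residual and 4.13 prior degrees of freedom), with each comparison as a contrast and p-values adjusted by Benjamini-Hochberg over all tested genes. The fit was tested on simulated data. Nothing in the labels says that cultured arrays came from separate animals, so p-values measure only the spread between these arrays, and the number of arrays limits the precision. Named genes were the 15 largest differences in each direction with arrays that do not overlap, the 12 remained genes with the largest smaller difference in each direction, the closed, opened and reversed genes, and members of the lists. The groups, lists and rules were chosen with earlier results of these data known. The alternatives changed the spread, the arrays, a replicate block, the filter, the probe set, the scaling, the variance model and array weights. Cultured groups have 2 numbers each and the labels do not tie a number to an animal, so the reported fit has no block. Same-numbered arrays did deviate together in part, and fits with a block are among the alternatives.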

Additional observations from a re-analysis of the deposited data

Results flagged for a closer look

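The change of the memory minus naive difference with IL-4 was tested directly and passed for 10 genes. It was 3.76 for Ecm1, 3.31 for D630039A03Rik, 3.08 for Lta and 2.20 for Tnfrsf18, which closed. It was 3.59 for Myo6, 3.32 for Gm17767, -2.81 for Ptpn3, -2.28 for H2-Q2, -2.05 for Papss2 and -1.76 for Dhrs3, which opened.

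Among the 64 named genes and checks looked at in the 4 ex vivo memory arrays, 8 had 1 array set apart from the other 3. The rule took the gap to the nearest array relative to the range of the 4, so a flagged gap can be small. It was wide for Xist (4.40 against 11.78 to 12.75) but narrow for Dhrs3 (4.06 against 3.86 to 3.87) and Baz2b (5.89 against 6.16 to 6.19). Chance alone gives about 1 in 20 groups, but only for genes chosen without knowledge of their values. Earlier results of these data were known here. The array set apart was not the same for all genes. Array 3 was the lowest for Xist (4.40), and array 2 for Baz2b (5.89) and Ecm1 (5.90). Array 4 was the lowest for Bik (5.08) and Crip1 (10.93). Array 1 was the highest for Ptger2 (3.92) and Alas2 (11.5), and array 2 for Dhrs3 (4.06).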

How the results depend on the processing

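Of 57 named genes past the test with both cytokines, 33 passed under each of the 20 alternatives that tested them and 0 changed direction under any. The alternative without ex vivo memory array 3 was chosen after seeing the data. Leaving out 1 array gave 78 to 1095 genes for the difference with both cytokines (54 to 639 higher, 24 to 639 lower), 86 to 661 with IL-7, 214 to 605 ex vivo and 2 to 368 for the change of the difference, and 54 to 253 remained, 2 to 48 closed, 0 to 286 opened and 0 to 13 reversed genes. With only the 8 arrays of both cell types with IL-7, the change passed for 2 genes, with 2 closed and 0 opened. Closed genes numbered 2 with no filter, with the filter at the 60th percentile (where the change passed for 6) and with the probe set of the largest SD. Median centring gave 164 lower and 0 reversed genes, and moved the median difference of all genes from 0.034 to 0.147 on the log2 scale. Array weights gave 206 genes with both cytokines (109 higher, 97 lower), 1390 with IL-7, 516 ex vivo and 2 reversed. The cause of these changes was not tested.

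The labels do not say what a replicate number marks. Over genes, the difference between arrays 1 and 2 correlated at r = 0.51 between naive cells with both cytokines and with IL-7, 0.25 between memory cells of the same conditions, 0.22 between naive and memory cells with both cytokines and -0.09 to 0.12 in the other 3 pairs of groups. Levels of Eif2s3y and Kdm5d followed the number in all memory groups, so arrays of 1 number may not be independent across conditions. With the number as a fixed replicate block, 710 genes passed, 473 of them shared, and 0 genes reversed. The change passed for 10 genes under that block, of which 7 were shared: Lta, Tnfrsf18 and Dhrs3 were lost, and Klrk1, Endog and Osm were gained. As a random block within cell type (consensus correlation 0.098), 545 genes passed and the change passed for 12, all 10 reported genes with Klrk1 and Atp10a. With 2 arrays a group, a missed threshold does not show that levels were alike.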
